A study of Mus musculus with 2 samples.

Results

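Genomic imprinting marks a gene in the germ line so that the copy from 1 parent is used and the other is kept largely silent. Several imprinted loci carry microRNA hairpins, from which the short RNAs that guide Argonaute proteins to target transcripts are cut. The genes described here are the 5 microRNA genes of the H19, Igf2, Mest and Gnas antisense loci (Mir675, Mir483, Mir335, Mir296 and Mir298), chosen by their GENCODE M21 symbols from 2202 microRNA genes in all. Their loci act in growth and metabolism. Igf2 encodes a fetal growth factor and is used from the paternal copy, whereas the long noncoding RNA H19, abundant in embryonic muscle, is used from the maternal one. Mest is a paternally used gene for an enzyme of the hydrolase fold, and Nespas is a paternally used RNA antisense to Gnas, the gene of the stimulatory G-protein alpha subunit.

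Small RNA (molecules under 30 nucleotides, per the labels) was sequenced from the gastrocnemius, the large muscle of the calf, of female B6CASTF1/J mice at 36 days of age. B6CASTF1/J animals are the F1 offspring of a C57BL/6 by CAST/EiJ cross, with no treatment or engineered allele given in the labels, and the direction of the cross is not given in the sources used here. There was 1 group with 2 libraries, labelled biological replicates 1 and 2. The labels describe separate females but give both the same donor identifier, so the spread between the libraries may be technical. Reads of the parental copies were not separated, and imprinting itself was therefore not measured. The host transcripts are not in these tables either.

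Gene-assigned reads numbered 1593787 in replicate 1 and 2078101 in replicate 2. Reads matching several places in the genome were 4.51 and 5.25 times as many and belong to no gene. Of all genes, 273 had at least 10 reads in both libraries and are called detected. The skeletal muscle markers all had reads (7 of 8 detected) and were led in counted reads by Mir206. They held 2.21% of gene-assigned reads in replicate 1 and 6.94% in replicate 2. Mir1a-1 and Mir1a-2 are copies, as are Mir133a-1 and Mir133a-2, and their reads that match several places are not in these shares. The muscle shares therefore cannot be compared with those of the lists that follow. The smooth muscle markers (2 of 2 detected) held 12.03% and 6.25%, the erythroid markers (2 of 2) 3.73% and 0.898%, and the endothelial markers (3 of 4) 8.86% and 11.3%. Of 9 nerve and glia markers, 5 had no read (Mir9-1, Mir9-2, Mir124a-1, Mir124a-2 and Mir124a-3), but these genes have copies whose reads match several places. In whole muscle, fewer cells of a type and less RNA per cell cannot be told apart.

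The mature sequences are those annotated for these genes. RefSeq (GRCm38.p6) holds 2 mature forms for each of the 5 genes, given here 5′ to 3′ with the seed, bases 2 to 8, in capitals.
miR-335-5p: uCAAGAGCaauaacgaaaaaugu
miR-335-3p: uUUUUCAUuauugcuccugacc
miR-483-5p: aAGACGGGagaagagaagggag
miR-483-3p: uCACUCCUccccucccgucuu
miR-675-5p: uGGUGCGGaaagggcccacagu
miR-675-3p: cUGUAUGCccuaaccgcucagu
miR-298-5p: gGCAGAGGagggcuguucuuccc
miR-298-3p: gAGGAACUagccuucucucagcuu
miR-296-5p: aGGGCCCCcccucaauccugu
miR-296-3p: gAGGGUUGgguggaggcucucc
The 10 seeds were all different, and none of them was found in another of the 1738 mature sequences of that table. This held for the neighbours Mir296 and Mir298 as well. Each mature sequence lay in 1 hairpin of the table, and no hairpin shared a stretch of 20 bases with another annotated microRNA gene. A search of 141767 annotated transcripts on both strands found the Mir675 sequences also in H19, their host, and the other 8 in their own gene alone. The whole genome was not searched. The counts are per hairpin and the reads were not matched to these sequences here. The 5p and 3p forms of a gene therefore cannot be told apart, nor can fragments of other parts of the hairpin.

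The hairpins differ in how they sit in their loci (GRCm38, mm10). Mir675 (ENSMUSG00000076275.1) is at chr7:142577064-142577147 on the minus strand, 996 bases from the start of H19. It is exonic in 3 and intronic in 1 of the 7 annotated H19 transcripts. Mir483 (ENSMUSG00000070140.1), at chr7:142654924-142654996 on the minus strand, is in an intron of 7 of 9 Igf2 transcripts, and 77776 bases separate it from Mir675. Mir483 also overlaps the annotated gene Gm49394. Mir335 (ENSMUSG00000065501.1), at chr6:30741299-30741396 on the plus strand, is in an intron of 7 of 11 Mest transcripts. Mir298 (ENSMUSG00000065410.1), at chr2:174267504-174267585, and Mir296 (ENSMUSG00000065521.1), at chr2:174267047-174267125, are both on the minus strand with 378 bases between them. In this annotation neither lies in a longer gene: Nespas, on the same strand, ends 13651 bases before Mir298 and 14111 before Mir296.

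**Figure D1:**
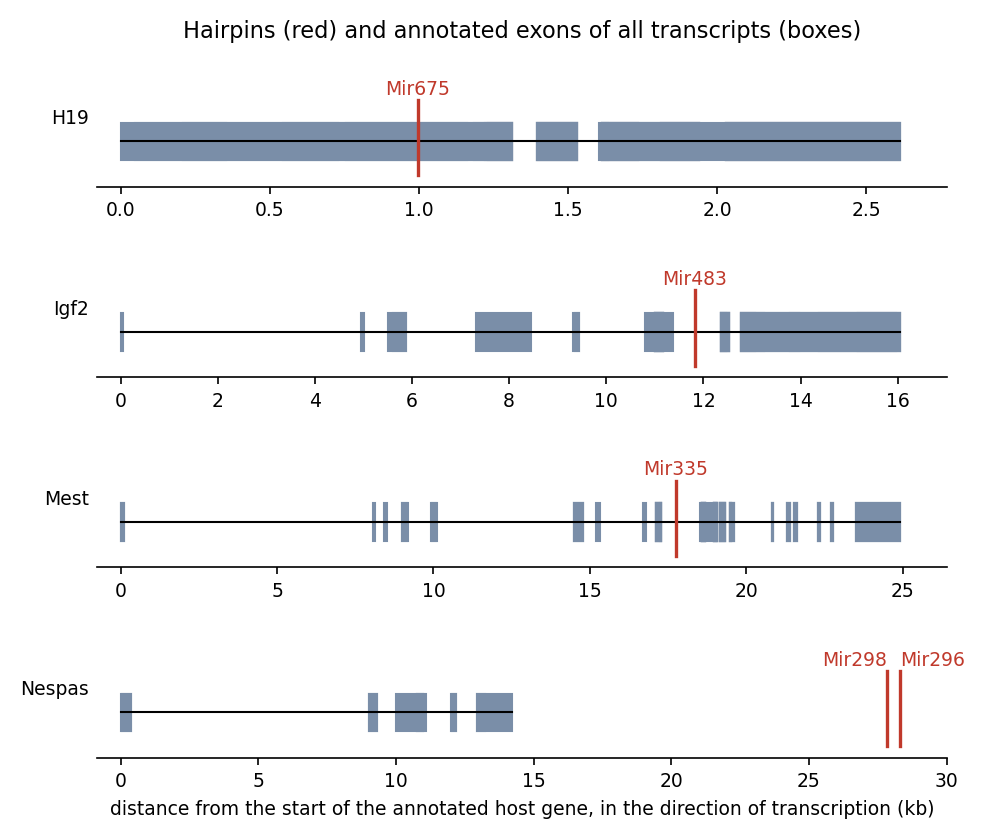
Position of each hairpin (red, at its first base) along its host gene, with the exons of all annotated transcripts as boxes and the distance from the gene's start in kb. Mir675 falls in an exon of 3 of 7 H19 transcripts, Mir483 and Mir335 fall between exons, and Mir298 and Mir296 lie beyond the annotated end of Nespas.

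All 5 genes were detected in both libraries, at levels that differed widely. Together they held 0.909% of gene-assigned reads in replicate 1 (exact 95% counting interval 0.895 to 0.924) and 0.943% in replicate 2 (0.930 to 0.956), a mean of 0.926% ± 0.0237 (SD, n = 2). Mir335 made up most of this, with 92.2% of the reads of the 5 genes in replicate 1 and 90.7% in replicate 2. Without it the other 4 held 0.0712% and 0.0872% of gene-assigned reads. Intervals here and below are Clopper-Pearson, treat reads as independent and cover counting error of reads alone. PCR copies of a molecule cannot be recognised, so the intervals may be too narrow for molecules.

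Mir335, the Mest intron gene, whose product is best known as a suppressor of breast cancer metastasis, had 13359 reads in replicate 1 and 17781 in replicate 2. This was 8382 counts per 1000000 gene-assigned reads (CPM) and 8556 CPM, a mean of 8469 ± 123 (SD, n = 2). It ranked 22nd by mean CPM among the 273 detected genes. Counting error at this depth was 0.865% and 0.750% of the count, far less than for the other 4.

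Mir483, the Igf2 intron gene, came next, with 899 and 1532 reads. Its level was 564 CPM in replicate 1 (528 to 602) and 737 CPM in replicate 2 (701 to 775), so the counting intervals of the libraries did not overlap. The mean of 651 ± 122 (SD, n = 2) placed it 75th. Mir335 had 14.9 reads for each read of Mir483 in replicate 1 (13.9 to 15.9) and 11.6 in replicate 2 (11.0 to 12.2).

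Mir298, studied as a repressor of the amyloid-processing enzyme gene Bace1, had 161 and 198 reads. These were 101 CPM (86.0 to 118) and 95.3 CPM (82.5 to 109.5), with intervals that overlap, and a mean of 98.1 ± 4.06 (SD, n = 2) that ranked 160th. Its neighbour Mir296 had 35 reads in each library, or 22.0 CPM (15.3 to 30.5) and 16.8 CPM (11.7 to 23.4), a mean of 19.4 ± 3.62. It ranked 239th and was the lowest of the 5. Mir298 thus exceeded Mir296 by 4.60 times in replicate 1 (3.18 to 6.83) and by 5.66 times in replicate 2 (3.93 to 8.35), a log2 ratio of 2.35 ± 0.21 (SD, n = 2), although 378 bases separate them.

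Mir675, the H19 gene, whose product restrains Igf1r in the placenta and has been tied to differentiation in muscle cells, had 39 and 48 reads. Its level was 24.5 CPM in replicate 1 (17.4 to 33.5) and 23.1 CPM in replicate 2 (17.0 to 30.6), a mean of 23.8 ± 0.970 (SD, n = 2) and rank 223. Because the hairpin lies in an exon of some H19 transcripts, any short H19 fragments from this stretch cannot be told apart from Mir675 reads. The gene of the Igf2 side of this domain, Mir483, had 23.1 reads per read of Mir675 in replicate 1 (16.7 to 32.6) and 31.9 in replicate 2 (24.0 to 43.5), a log2 ratio of 4.76 ± 0.33.

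The order from high to low was thus Mir335, Mir483, Mir298, Mir675 and Mir296 in both libraries. The last 2 did not differ beyond counting error, as the ratio of Mir675 to Mir296 was 1.11 (0.688 to 1.81) and 1.37 (0.869 to 2.18). Mir298 lay 4.13 times above Mir675 in replicate 1 (2.89 to 6.02) and 4.12 times in replicate 2 (3.00 to 5.78). These are orders of counted reads. Ligation of adapters depends on the sequence, and the hairpins differ in GC content. From the highest count to the lowest it was 42.9% for Mir335, 58.9% for Mir483, 53.7% for Mir298, 63.1% for Mir675 and 63.3% for Mir296. The part of sequence composition in the order was not tested.

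**Figure D2:**
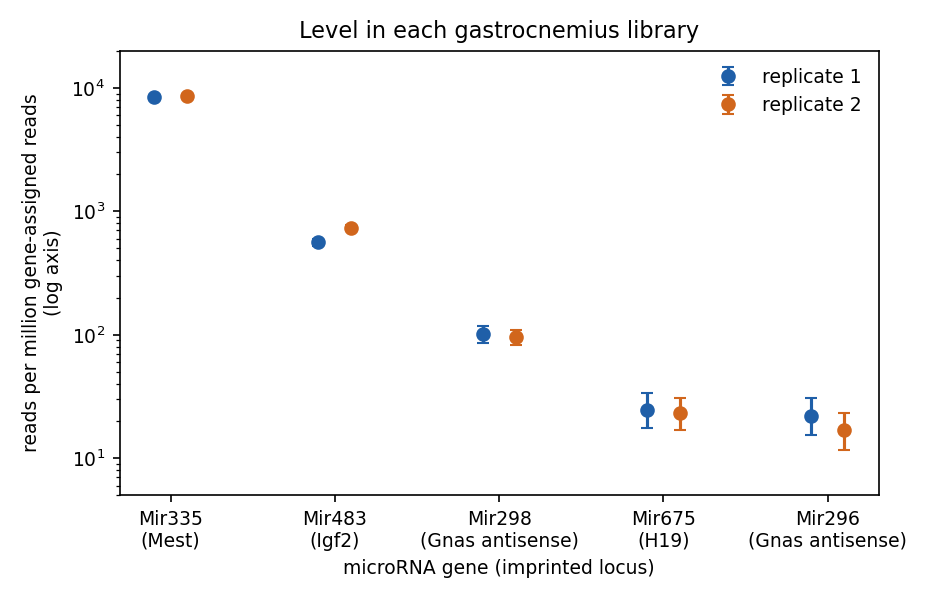
Level of each gene in each library, in CPM on a log axis, with points for the libraries and bars for exact 95% counting intervals. The 5 genes span from 16.8 to 8556, and the intervals of Mir675 and Mir296 overlap.

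Whether the libraries divided each gene's reads as their depth would give was asked with a two-sided exact binomial test of scaled library sizes, run over all 273 detected genes. P-values were adjusted by Benjamini-Hochberg and read at 0.05. The test sets 1 library against another and no condition against another. Of the 5 genes, 2 passed, both higher in replicate 2, and 3 did not. The background was high, as 63.0% of all detected genes passed, 33.3% higher and 29.7% lower in replicate 2. This split of 91 higher and 81 lower rests on the scaling, and was 56 and 120 when reads of several places were added to the library sizes. The median log2 ratio was -0.02 over the 5 and 0.02 over all 273.

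Mir483 had a scaled ratio of 1.37 in favour of replicate 2 (1.26 to 1.49, exact 95% interval, adjusted p = 1.6e-13 by the exact binomial test). Its log2 ratio of 0.45 was not unusual in size, since 113 of the 273 genes had a larger absolute one. The scaling of the libraries left this call in place, with folds from 1.15 to 1.37. Sums over some marker lists differed between the libraries as well, besides the muscle, smooth muscle, erythroid and endothelial values given above. The slow fibre markers Mir208b and Mir499 (1 of 2 detected) summed to 57.1 and 1163 CPM (91 and 2416 reads). Mir499 is also in the skeletal muscle list, so these 2 lists are not separate observations. The nerve and glia markers (1 of 9 detected) summed to 1518 and 539 CPM. Of the skeletal muscle genes, 4 were called higher and 0 lower, and of the endothelial genes 1 and 0. The smooth muscle and erythroid lists each had 0 higher and 2 lower. The slow fibre list had 1 higher and 0 lower, and the nerve and glia list 0 and 1. The heart marker was not detected, with 1 and 15 reads. The leukocyte markers split into 2 higher and 2 lower and the endocrine ones into 1 and 1, and the liver marker gave no call. The part of these lists in the ratio of Mir483 was not tested.

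Mir335 was 1.07-fold higher (1.05 to 1.09, adjusted p = 1.4e-08 by the exact binomial test), a log2 ratio of 0.10 that 236 genes exceeded in size. The direction of so small a ratio rests on the scaling. It was 1.02 (0.998 to 1.04, adjusted p = 0.109 by the same exact test) with total gene-assigned reads and 1.01 with scaling factors from all genes. It was 0.900, and called lower, when reads of several places were added to the library sizes.

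The others gave no call. Mir675 had a ratio of 0.989 (0.635 to 1.55), Mir298 one of 0.988 (0.798 to 1.22) and Mir296 one of 0.803 (0.488 to 1.32). The intervals show what the depth leaves undecided: on 35 to 48 reads they reach up to a ratio of 1.55 for Mir675 and down to 0.488 for Mir296.

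The exact test of edgeR was also run at a single dispersion fitted to these same libraries, a coefficient of variation of 0.335. It passed 4 of 273 genes (1.47%) and 0 of the 5. Unadjusted, this exact test had p under 0.05 for 19 of all genes and for 0 of the 5, with Mir483 at p = 0.517. The dispersion itself contains the difference between the libraries, so the result ranks ratios by size at their depth and is no test over animals.

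**Figure D3:**
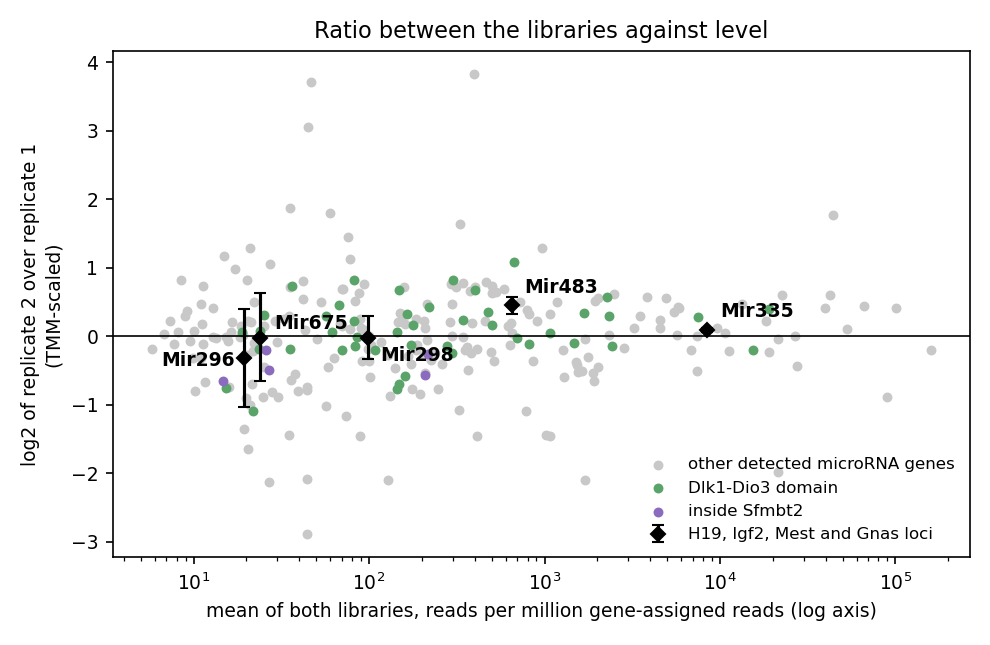
Log2 ratio of replicate 2 over replicate 1 after scaling, against mean level on a log axis, for all 273 detected microRNA genes, with exact 95% counting intervals for the genes of the H19, Igf2, Mest and Gnas loci. These lie between -0.32 (Mir296) and 0.45 (Mir483), and the intervals of Mir675, Mir298 and Mir296 cross 0.

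Other imprinted microRNA genes give a measure of what these levels are in this muscle. The Dlk1-Dio3 domain of chromosome 12, whose microRNAs are used from the maternal copy, has 67 annotated genes, of which 45 were detected, with 5.83% of gene-assigned reads in replicate 1 and 6.27% in replicate 2. Its highest gene, Mir127, which lies antisense to Rtl1, had 26922 and 44342 reads. Of its genes, 2 were above Mir335 in mean CPM and 12 above Mir483. The 119 genes inside Sfmbt2 on chromosome 2 held 0.0582% and 0.0416%. Of these, 5 were detected, and the highest, Mir467d, had 385 and 401 reads and so lay between Mir483 and Mir298. The hairpins of 117 of the 119 share a stretch of 20 bases with another microRNA gene, against 0 of the 5. The tables credit a read that fits more than 1 place to no gene, and a missing read there does not show absence. Sharing such a stretch does not by itself remove all reads, as all 5 detected Sfmbt2 genes share one, like 66 of the 273 detected genes.

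Between the libraries, 17 detected genes of the Dlk1-Dio3 domain were higher in replicate 2, 8 were lower and 20 did not pass, a median log2 ratio of 0.07. With reads of several places added to the library sizes this turned to 8 higher and 17 lower, with a median of -0.18. In Sfmbt2, 2 were lower, 3 gave no call and 0 were higher, and the median was -0.50. The shares called, 55.6% and 40.0%, were no higher than the 63.0% of all detected genes. No difference between these groups of genes was tested.

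**Figure D4:**
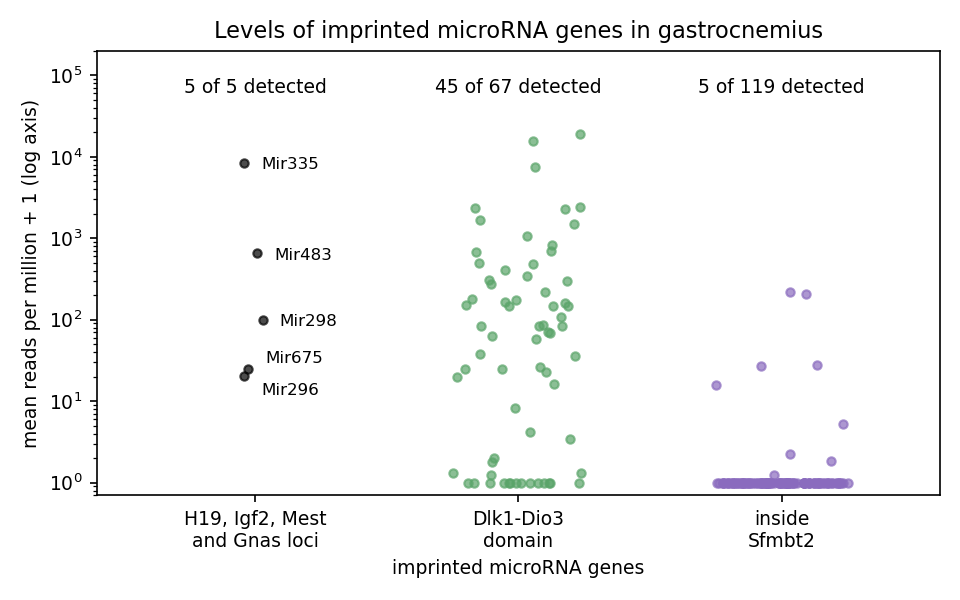
Mean CPM plus 1, on a log axis, for each microRNA gene of 3 groups of imprinted loci, 1 point per gene. Mir335 lies among the highest genes of the Dlk1-Dio3 domain, and most genes inside Sfmbt2 stand at no read.

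The genes nearest to each in level over the 2 libraries, by distance in log2(CPM + 1), came from many chromosomes. For Mir335 they were Mir100, with 15066 and 20417 reads, Mir30e, and Mir379 of the Dlk1-Dio3 domain. Mir483 stood closest to Mir351 (986 and 1408 reads), Mir1839 and Mir181b-2. Mir298 stood closest to Mir1843b (163 and 203 reads), Mir125b-2 and Mir204. Mir675 was nearest to Mir370 (38 and 50 reads) and Mir665, both of the Dlk1-Dio3 domain, then Mir194-2. Mir296 was nearest to Mir222 (36 and 37 reads), Mir3061 and Mir199a-2. With 2 libraries this likeness is one of level and no pattern across conditions. On the genome the nearest microRNA gene to Mir335 was Mir29a, 321263 bases away and outside Mest, with 3792 and 2994 reads.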

How the data were processed

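Small RNA libraries from the gastrocnemius of 2 female mice were taken as 2 replicates of 1 group. The authors deposited raw read counts per microRNA gene for mm10 and annotation M21, per the read-me text with the files. Names of the aligner, the counter and the trimming steps were not given in the sources used here. The tables carry no header. Their 3 count columns were taken, from layout and values, as unstranded, strand of the gene (used here) and opposite strand. All 2202 identifiers matched GENCODE M21.

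The 4 summary rows entered neither library sizes nor tests. CPM were computed over gene-assigned reads, and a count of 0 allows 3 counts (1.88 and 1.44 CPM). Libraries were scaled with TMM factors from detected genes (edgeR 4.0.16, R 4.3.3), and a two-sided exact binomial test was adjusted over all detected genes. The test was checked on simulated counts with counting error alone and known library sizes, which does not cover the wider spread between these libraries. Alternatives were other scalings (DESeq2 1.42.0 size factors among them), read minimums, strand, denominators, leaving out each replicate, and the exact test of edgeR at 1 shared dispersion. With 1 group no quasi-likelihood contrast exists. Named were all 5 genes, the 3 genes nearest to each in level, the nearest microRNA gene on the genome, and the highest gene of each other imprinted list. Genes and lists were chosen with earlier results of these data known. Scripts ran in Python 3.11.15 with scipy 1.17.1, numpy 2.4.6, matplotlib 3.10.9 and pandas 2.3.3.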

Additional observations from a re-analysis of the deposited data

Results flagged for a closer look

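The opposite-strand column, which the comparisons above do not use, held 9 reads at Mir675 in replicate 2, more than the limit of 3 counts set by a count of 0, and 2 in replicate 1. This gene was singled out after its values were seen. The reads were 15.8% of the 57 on both strands in replicate 2 (exact 95% interval 7.48 to 27.9) and 4.88% of 41 in replicate 1 (0.596 to 16.5). Both were the highest such shares among the 249 detected genes that have no microRNA gene on the other strand. Over all other genes free of such an overlap, detected or not (2138 with Mir675), 0.00203% of reads in replicate 2 and 0.00221% in replicate 1 were on the opposite strand. Among the detected ones, Mir122 (2.25%, 8 reads) was next in replicate 2 and Mir203 (2.19%, 8 reads) next in replicate 1. The Mir675 hairpin, with the mature 5p and 3p forms in capitals, reads as follows.
Mir675 hairpin: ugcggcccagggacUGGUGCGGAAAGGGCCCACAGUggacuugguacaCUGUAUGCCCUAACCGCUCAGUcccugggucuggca
Without regard to strand Mir675 had 41 and 57 reads, and its ratio between the libraries was 1.11 (0.731 to 1.70) in place of 0.989. Of the other 4 genes, Mir335 had 1 opposite-strand read in replicate 2, and Mir483, Mir296 and Mir298 had 0.

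Reads that match several places, 7195252 in replicate 1 and 10919725 in replicate 2, stand in a summary row and in no gene. They were 75.4% and 77.6% of all reads.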

How the results depend on the processing

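The number of genes called stayed within 1.5 times of 172 (150 to 176) under the 4 other scalings, 2 other read minimums and the other strand setting, and fell to 4 with the exact test of edgeR at 1 shared dispersion. The split of 91 higher and 81 lower turned to 78 and 92 with total gene-assigned reads, 73 and 92 with TMM factors from all genes, and 56 and 120 with reads of several places, the last 2 settings chosen after seeing the data. The combined share of the 5 genes was 0.158% with reads of several places in the denominator, 1.10% with the most abundant gene left out of it, and 1.33% without regard to strand, where reads of overlapping genes are lost from the total. It ranged from 0.909% to 0.943% when either replicate was left out. Of 35 alternatives for the ratios of the 5 genes, 30 kept their side of the threshold, 4 lost a call and 1 reversed. Mir335 reversed to 0.900 with reads of several places added to the library sizes, a setting that shifts all log2 ratios by -0.25. It lost its call with total gene-assigned reads (1.02) and with TMM factors from all genes (1.01, a setting chosen after seeing the data), which shift all log2 ratios by -0.07 and -0.08. With the exact test of edgeR Mir483 and Mir335 lost their calls. Over these alternatives the adjusted p ran from 3.2e-13 to 1.00 for Mir483, with a lowest binomial fold of 1.15, and from 2.1e-19 to 1.00 for Mir335, by exact tests. Levels under another denominator or strand setting moved by more than 1 SD in 14 of 20 cases and by less in 6. With 2 libraries, leaving out either cannot move a level by more than 1 SD and says nothing about stability. At 35 to 48 reads Mir675 and Mir296 carry a counting error of 14.4% to 16.9%. No paired analysis was possible because the design has 1 group.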
